A study of Homo sapiens with 12 samples.

Results

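The 10 genes described here are ATF4, DDIT3 (which encodes CHOP), ATF3, TRIB3, CHAC1, ASNS, SESN2, PPP1R15A (GADD34), DDIT4 and EIF2AK3 (PERK), core genes of the integrated stress response. They were chosen by symbol, with earlier results of these data known. All 10 were listed in the count tables of both cell lines, among 20293 genes listed in either line.

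In the integrated stress response, a sensor kinase such as PERK, which is activated by unfolded protein in the endoplasmic reticulum, phosphorylates the initiation factor eIF2 and slows most translation. The mRNA of the transcription factor ATF4 is then translated more efficiently, so that much of its control lies downstream of its mRNA level. ATF4 and its target CHOP raise genes for amino acid supply and redox balance and, when stress persists, genes linked to cell death, while GADD34 brings a phosphatase back to eIF2 and closes the loop.

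RNA-seq libraries were made from HepG2 and Huh7, both lines derived from human liver cancer, after transfection with a non-targeting Ctrl-siRNA or with UBL5 siRNA against the mRNA of ubiquitin-like protein 5, a small protein that takes part in pre-mRNA splicing. There were 3 libraries in each of the 4 groups, 12 in all. The labels give 52 h for every library, whereas a figure legend of the study gives a shorter time before RNA isolation. A single siRNA sequence was used against UBL5 and no rescue is among the libraries, so an effect of that sequence on other mRNAs cannot be told apart from the loss of UBL5. The labels name no ER stress agent for these libraries, which therefore compare cells with and without UBL5 siRNA in ordinary culture. Whether the libraries of a group came from separate transfections is not given in the sources, so p-values measure the spread between libraries, which may be technical.

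Counted reads per library ranged from 19469574 to 29744471. In HepG2, Ctrl-siRNA replicate 3 had 1773 of 17640 listed genes at 0 where the other 5 libraries had 159 to 233, and the column headers of both replicate 3 libraries of HepG2 lack the sample number that the other 10 carry. Calls of the 10 genes and counts of the gene lists that changed when both were left out are therefore also given without them. The hepatocyte markers ALB, AFP, TTR, APOA1, APOB, SERPINA1, TF, FGB and HNF4A were expressed in both lines, led by ALB at a mean of 17802 counts per 1000000 reads (CPM) in HepG2 and 7997 in Huh7. Of 12 endothelial, fibroblast and leukocyte markers, 7 were listed in HepG2 and 5 in Huh7, and their summed level ranged over 13.3 to 23.0 CPM in control and 16.2 to 32.1 CPM with UBL5 siRNA in HepG2, and over 4.76 to 7.11 CPM and 9.21 to 21.0 CPM in Huh7, where the groups did not overlap. The share of counted reads from mitochondrial genes was 1.91 to 2.35% in control and 2.75 to 3.61% with UBL5 siRNA in HepG2, also without overlap, and 2.46 to 3.30% and 2.66 to 3.72% in Huh7. The part of either move in the results was not tested.

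The targeted mRNA was low in every UBL5 siRNA library. UBL5 stood at 60.4, 55.5 and 58.7 CPM in the Ctrl-siRNA libraries of HepG2 and at 6.88, 4.31 and 2.80 with UBL5 siRNA, and in Huh7 at 68.1, 70.8 and 67.1 against 6.45, 6.67 and 5.80. The groups did not overlap in either line, and the fitted level with UBL5 siRNA was 0.0808 of control in HepG2 and 0.0919 in Huh7.

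With UBL5 siRNA the 10 genes did not move as a block in either line. In HepG2, SESN2 and DDIT4 rose, DDIT3 and EIF2AK3 fell, and 5 of the 9 genes with enough counts to be tested did not pass the test (edgeR's quasi-likelihood test, adjusted p under 0.05 over all genes tested). The 2 genes of 9 called higher stand beside 16.5% of all 15755 genes tested in that line, and the 2 called lower beside 20.1%. Without both replicate 3 libraries 3 of 9 were called higher, with ATF3 added, and the same 2 lower. All genes called then numbered 3427 higher and 3743 lower, against 2607 and 3173 with all libraries. In Huh7, ATF4, TRIB3 and DDIT4 rose, EIF2AK3 and PPP1R15A fell, and the other 5 of 10 did not pass. Of all 16965 genes tested in Huh7, 34.9% were called higher and 36.4% lower. In this fit the share of these genes called in Huh7 was thus no larger than that of genes at large in either direction. With the replicate block, and also without Huh7 Ctrl-siRNA replicate 3, 5 of the 10 were called higher. All genes called higher then numbered 6262 and 5946, against 5922 in the main fit. The median log2 fold change of the tested genes was -0.01 in HepG2 and 0.08 in Huh7, beside 0.01 and -0.01 over all genes tested. DDIT4 was called higher and EIF2AK3 lower in both lines.

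**Figure D1:**
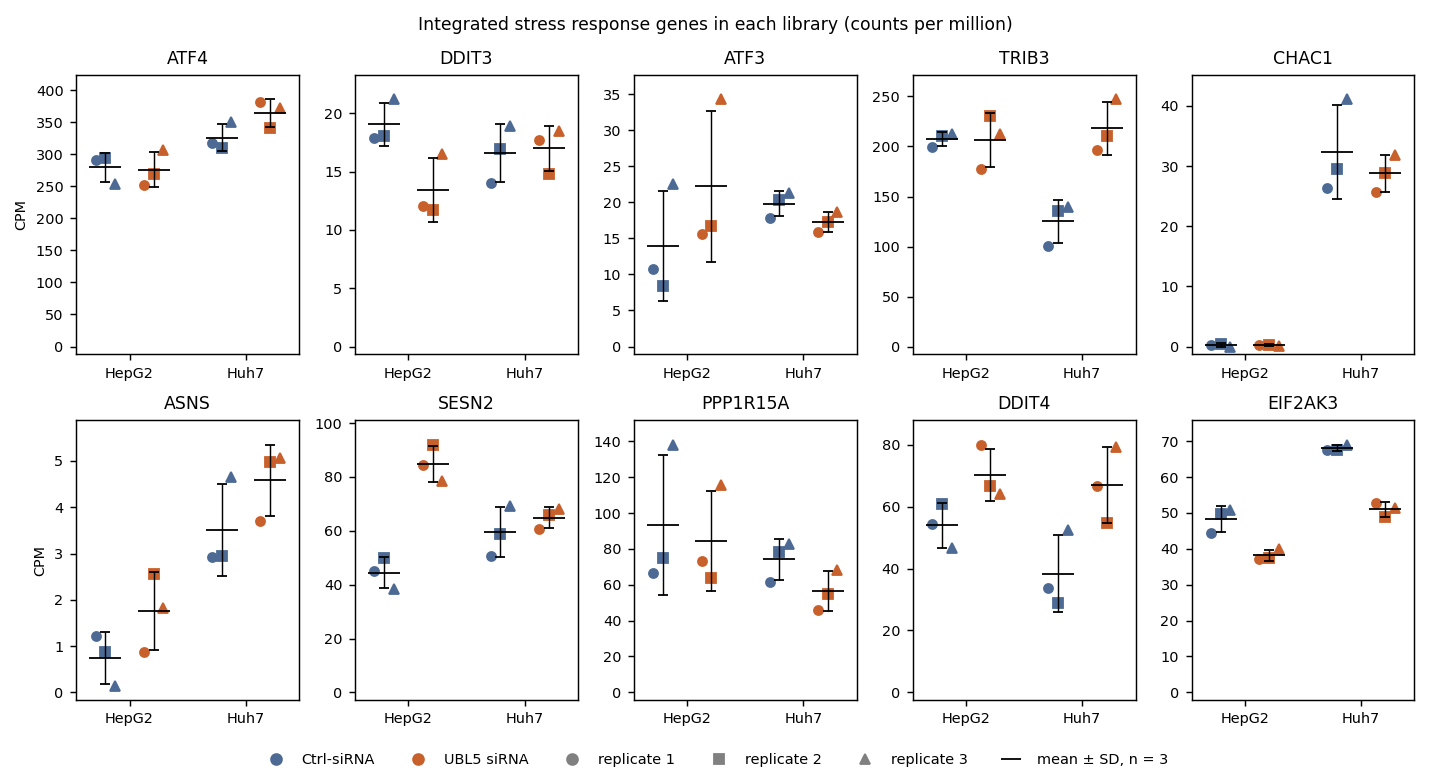
CPM (y axis, linear, scaled for library size) of each of the 10 genes in all 12 libraries, with Ctrl-siRNA in blue and UBL5 siRNA in orange, the replicate number as the marker shape, and the mean ± SD of 3 libraries in black. SESN2 in HepG2 and TRIB3 in Huh7 show UBL5 siRNA libraries wholly above control, EIF2AK3 wholly below it in both lines, and CHAC1 lies near 0 in all 6 HepG2 libraries.

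EIF2AK3 (chr2:88556741-88691518, minus strand, GRCh38, GENCODE 44) encodes PERK, the kinase that links protein folding in the endoplasmic reticulum to eIF2. Its level was 44.3, 49.8 and 51.0 CPM in the Ctrl-siRNA libraries of HepG2 and 37.1, 37.4 and 40.1 CPM with UBL5 siRNA. In Huh7 it was 67.7, 67.6 and 68.9 CPM in control and 52.9, 48.8 and 51.3 CPM with UBL5 siRNA. Every UBL5 siRNA library lay below every control library of its line.

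The fall came to a log2 fold change of -0.34 ± 0.10 (SE, n = 3 against 3) in HepG2 (edgeR adjusted p = 0.0272) and -0.42 ± 0.05 in Huh7 (edgeR adjusted p = 2.5e-05), that is to 0.789 and 0.750 of control. The Huh7 call was kept in all 12 alternatives. The HepG2 call was lost without Ctrl-siRNA replicate 2 (edgeR adjusted p = 0.0934) and without UBL5 siRNA replicate 1, 2 or 3 (0.0758, 0.140 and 0.0554). Of the 4536 exonic bases of the canonical transcript, 781 lie opposite an exon of the antisense gene model ENSG00000225420, which was listed only in HepG2, at a mean of 0.301 CPM in control.

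ATF4 (chr22:39519695-39522683, plus strand) is the transcription factor at the centre of the pathway. In HepG2 its mRNA was at 291, 295 and 253 CPM in control and 252, 270 and 307 CPM with UBL5 siRNA, and the groups overlapped over nearly their whole range. In Huh7 it was at 318, 310 and 350 CPM in control and 381, 340 and 372 CPM with UBL5 siRNA, where the lowest UBL5 siRNA library lay below the highest control library.

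The log2 fold change of ATF4 was -0.02 ± 0.10 (SE) in HepG2 (edgeR adjusted p = 0.904) and 0.16 ± 0.06 in Huh7 (edgeR adjusted p = 0.0280), a rise to 1.12 times control. The Huh7 call did not hold with upper-quartile scaling (0.0817), in the fit over all 12 libraries (0.184), or without Ctrl-siRNA replicate 1 or 2 or UBL5 siRNA replicate 1 or 3 (edgeR adjusted p = 0.0683, 0.120, 0.0731 and 0.0563). The counts are of mRNA and carry no measure of ATF4 protein.

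DDIT3 (chr12:57516588-57521737, minus strand) encodes CHOP, the partner of ATF4 that is commonly read as a marker of unresolved ER stress. In HepG2 its counts came to 17.9, 18.1 and 21.2 CPM in control and 12.04, 11.7 and 16.5 CPM with UBL5 siRNA, so all UBL5 siRNA libraries were below all controls. In Huh7 the values were 14.0, 17.0 and 18.9 CPM against 17.7, 14.8 and 18.5 CPM, and the groups overlapped.

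DDIT3 fell in HepG2, with a log2 fold change of -0.51 ± 0.17 (SE, edgeR adjusted p = 0.0420), while in Huh7 the change was 0.04 ± 0.12 (edgeR adjusted p = 0.766). The HepG2 call sat at the threshold. Its adjusted p was 0.0132 with the replicate block and 0.0173 in the fit over all 12 libraries, and 0.0557 with RLE size factors, 0.0571 with upper-quartile scaling, 0.0540 without the filter on low counts and 0.0546 in DESeq2. It was kept without UBL5 siRNA replicate 3 (edgeR adjusted p = 0.0172) and without both replicate 3 libraries (0.00497), and lost without any of the other 5 libraries (0.0617 to 0.202).

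The DDIT3 counts may include reads of a neighbour. Of the 903 exonic bases of its canonical transcript, 219 lie opposite exons of MARS1, the methionyl-tRNA synthetase gene, which ends inside DDIT3 on the plus strand, and 105 are shared with the same-strand model ENSG00000285133, which was listed in neither line. The library kit keeps the strand, but the strand setting of the counting is not given in the sources used here. MARS1 itself fell in HepG2, from 265 ± 16.5 to 206 ± 6.96 CPM (mean ± SD, n = 3), with a log2 fold change of -0.36 ± 0.08 (SE, edgeR adjusted p = 0.00786), and was at 433 ± 8.75 and 445 ± 17.5 CPM in Huh7 (log2 fold change 0.04 ± 0.04, edgeR adjusted p = 0.450). MARS1 thus moved in the same direction as DDIT3 in the line where DDIT3 was called, and its part in the DDIT3 counts was not tested.

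The promoters of these genes differ in whether they hold the letters to which the factors of this pathway are known to bind. The C/EBP-ATF composite element bound by ATF4 with a C/EBP partner has TGATGNAA at its core (TTNCATCA on the other strand), and TGACGTCA is the cAMP response element bound by ATF and CREB factors, the same on both strands. Both were searched in the RefSeq promoter windows of GRCh38.p14, from 250 bases before to 50 after each gene start, of which all 10 genes have at least 1. The composite core was found in the windows of 3 of the 10 genes, ATF3, ASNS and CHAC1, and the cAMP response element in that of PPP1R15A. Over all 27305 genes with such windows, 4.46% hold the composite core and 2.25% the cAMP response element, and over the 35116 windows 3.62% and 1.85%. The matches are shown because the members that carry them can then be read against their counts. Each line gives the strand of the gene 5′ to 3′ with the matched letters in capitals.
ATF3, chr1:212565205-212565234, plus strand, the match 191 bases before the RefSeq start at 212565407: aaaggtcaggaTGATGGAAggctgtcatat
ASNS, chr7:97872458-97872487, minus strand, 68 bases before the RefSeq start at 97872408: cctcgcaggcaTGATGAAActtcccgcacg
CHAC1, chr15:40953251-40953280, plus strand, 209 bases before the RefSeq start at 40953471, as the reverse complement: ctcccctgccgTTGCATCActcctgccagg
PPP1R15A, chr19:48872352-48872381, plus strand, 58 bases before the RefSeq start at 48872421: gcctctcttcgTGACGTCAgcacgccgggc
The GENCODE 44 spans of ASNS, CHAC1 and PPP1R15A begin farther upstream than these RefSeq starts, so their matches lie inside the GENCODE gene, whereas that of ATF3 lies before both starts. Of the 3 genes with the composite core, ATF3 and ASNS did not pass the main test in either line. CHAC1 did not pass in Huh7 and was not tested in HepG2. With the replicate block ATF3 was called higher in HepG2 but lower in Huh7 (edgeR adjusted p = 0.00558 and 0.0230). ASNS was then called higher in Huh7 (0.0309), where the replicate numbers do not pair all libraries. Other alternatives that called ATF3 or ASNS are given with each gene below. PPP1R15A fell in Huh7. A match is a description of the letters, and its absence from a window of 300 bases says nothing of elements elsewhere in the gene.

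ATF3 (chr1:212565334-212620777, plus strand) encodes a stress-induced bZIP factor that acts with ATF4 and CHOP. In HepG2 it stood at 10.8, 8.45 and 22.6 CPM in control and 15.7, 16.6 and 34.3 CPM with UBL5 siRNA. The replicate 3 library was the highest of its group in both arms. Each UBL5 siRNA library was above the control library of the same number, by 1.45, 1.97 and 1.52 times, but the groups overlapped.

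The HepG2 log2 fold change of ATF3 was 0.66 ± 0.40 (SE) and did not pass (edgeR adjusted p = 0.238). Same-numbered HepG2 libraries deviated together across genes, and with the replicate number as a block ATF3 was called higher, at a log2 fold change of 0.70 (edgeR adjusted p = 0.00558). It was also called higher without both replicate 3 libraries, at 0.76 (0.00332), and without Ctrl-siRNA replicate 3 alone, at 1.20 (0.0137), and stood at 0.23 (0.712) without UBL5 siRNA replicate 3. In Huh7, ATF3 was at 17.9, 20.3 and 21.3 CPM in control and 15.9, 17.2 and 18.6 CPM with UBL5 siRNA, with overlapping groups. The log2 fold change there was -0.20 ± 0.09 (edgeR adjusted p = 0.0751). It passed with upper-quartile scaling (0.0325), with the replicate block, at -0.20 (0.0230), and without Ctrl-siRNA replicate 1 (0.0219).

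TRIB3 (chr20:362835-397559, plus strand) encodes a pseudokinase that is induced by ATF4 and CHOP and restrains them in turn. Its Huh7 control libraries were at 101, 136 and 140 CPM and its UBL5 siRNA libraries at 197, 210 and 247 CPM, well apart. In HepG2 the same gene was at 199, 211 and 213 CPM in control and 177, 230 and 212 CPM with UBL5 siRNA, and the groups overlapped.

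TRIB3 rose in Huh7 by a log2 fold change of 0.80 ± 0.11 (SE, edgeR adjusted p = 6.21e-05), to 1.74 times control, a call kept in all 12 alternatives. In HepG2 the log2 fold change was -0.01 ± 0.10 (edgeR adjusted p = 0.970). The mean with UBL5 siRNA was 218 ± 26.1 CPM (SD, n = 3) in Huh7 and 207 ± 27.1 CPM in HepG2.

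PPP1R15A (chr19:48872212-48876059, plus strand) encodes GADD34, which directs protein phosphatase 1 to eIF2. In Huh7 it was at 61.4, 78.1 and 82.9 CPM in control and 46.2, 54.8 and 68.3 CPM with UBL5 siRNA. The groups overlapped by the lowest control and the highest UBL5 siRNA library. In HepG2 the values were 66.4, 75.1 and 138 CPM against 73.2, 64.0 and 116 CPM, where, as for ATF3, both replicate 3 libraries were far above the other 4.

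PPP1R15A fell in Huh7 by 0.39 on the log2 scale, with an SE of 0.13 (edgeR adjusted p = 0.0209). The call was lost in DESeq2 (0.103), in the fit over all 12 libraries (0.221), and without Ctrl-siRNA replicate 2 or 3 or UBL5 siRNA replicate 1 or 2 (edgeR adjusted p = 0.0719, 0.0578, 0.0965 and 0.0740). In HepG2 the log2 fold change was -0.15 ± 0.30 (edgeR adjusted p = 0.740).

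SESN2 (chr1:28259518-28282491, plus strand) encodes sestrin 2, a leucine sensor that restrains the growth kinase complex mTORC1. Its HepG2 values were 45.1, 49.9 and 38.4 CPM in control and 84.6, 91.9 and 78.4 CPM with UBL5 siRNA, and no libraries of the 2 groups came near each other. In Huh7 they were 50.7, 58.8 and 69.2 CPM against 60.6, 65.8 and 68.1 CPM, and the UBL5 siRNA libraries all lay within the range of the controls.

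SESN2 rose in HepG2 by a log2 fold change of 0.94 ± 0.12 (SE, edgeR adjusted p = 0.000597), to 1.91 times control, and was called in all 13 alternatives, also without both replicate 3 libraries. In Huh7 the log2 fold change was 0.13 ± 0.10 (edgeR adjusted p = 0.256). It passed without Ctrl-siRNA replicate 3 (0.0135) and with the replicate block, at 0.13 (0.0427).

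DDIT4 (chr10:72273919-72276036, plus strand) encodes REDD1, another inhibitor of mTORC1 signalling. In HepG2 it was at 54.3, 61.0 and 46.6 CPM in control and 79.9, 66.7 and 64.2 CPM with UBL5 siRNA. In Huh7 it was at 33.8, 28.9 and 52.4 CPM in control and 66.8, 54.9 and 79.2 CPM with UBL5 siRNA. The UBL5 siRNA libraries were above all controls in both lines, in each by a narrow margin between the nearest libraries.

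DDIT4 rose by a log2 fold change of 0.38 ± 0.13 (SE) in HepG2 (edgeR adjusted p = 0.0470) and 0.81 ± 0.19 in Huh7 (edgeR adjusted p = 0.00203), to 1.303 and 1.76 times control. The Huh7 call was kept in all 12 alternatives. The HepG2 call was lost in the fit over all 12 libraries (0.100) and without Ctrl-siRNA replicate 1 or 3 or UBL5 siRNA replicate 1 or 2 (edgeR adjusted p = 0.107, 0.0853, 0.152 and 0.0661).

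CHAC1 (chr15:40952962-40956512, plus strand) encodes an enzyme that degrades glutathione and is a sensitive ATF4 target. In HepG2 the control libraries held 7, 12 and 0 reads and the UBL5 siRNA libraries 6, 8 and 1, too few to test a change. In Huh7 the gene was at 26.3, 29.6 and 41.1 CPM in control and 25.7, 28.9 and 31.8 CPM with UBL5 siRNA, with overlapping groups and a log2 fold change of -0.16 ± 0.14 (SE, edgeR adjusted p = 0.332).

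ASNS (chr7:97851677-97872542, minus strand) encodes asparagine synthetase, a classical ATF4 target. Only 4 to 62 reads per library were counted in HepG2, with 1.23, 0.879 and 0.133 CPM in control and 0.882, 2.57 and 1.82 CPM with UBL5 siRNA, and 66 to 109 reads in Huh7, with 2.91, 2.94 and 4.66 CPM against 3.70, 4.98 and 5.06 CPM. The groups overlapped in both lines. The log2 fold change was 1.24 ± 0.75 (SE) in HepG2 (edgeR adjusted p = 0.233) and 0.41 ± 0.20 in Huh7 (edgeR adjusted p = 0.0925). The Huh7 change passed without Ctrl-siRNA replicate 3 (0.00697), without UBL5 siRNA replicate 1 (0.0372) and with the replicate block, at 0.39 (0.0309).

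The ASNS level is uncertain for another reason. In GENCODE 44, 2374 of the 2385 exonic bases of its canonical transcript (99.5%) are also exons of the same-strand model ENSG00000284707, which was listed in neither line, and a counter that drops reads falling on more than 1 gene would lose nearly all ASNS reads. The annotation and that setting are not given in the sources used here, so the size of any such loss was not tested.

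**Figure D2:**
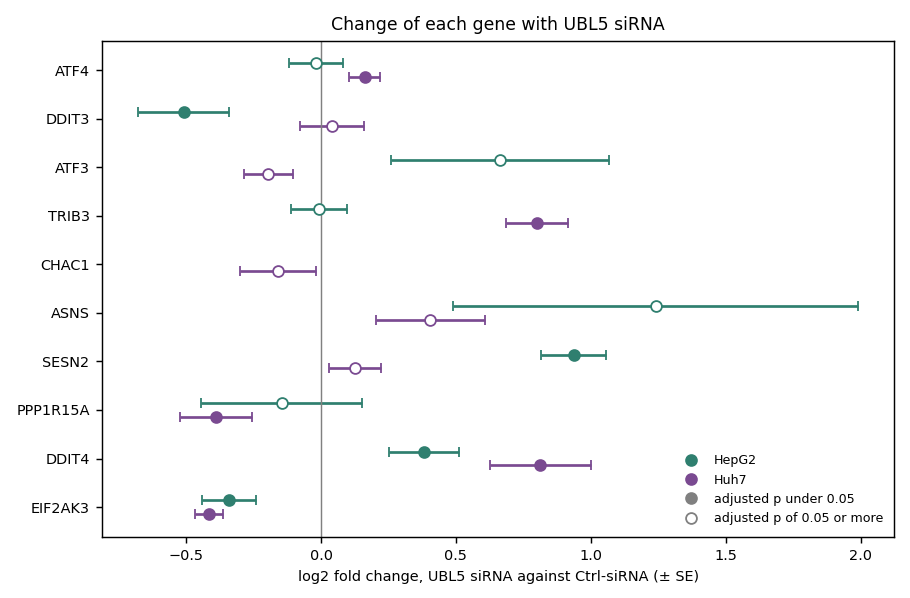
Log2 fold change of each gene with UBL5 siRNA against Ctrl-siRNA (x axis, points ± SE, n = 3 against 3) in HepG2 in green and Huh7 in purple, filled where the edgeR adjusted p was under 0.05, with CHAC1 shown in Huh7 only. The lines part at TRIB3 (-0.01 in HepG2, 0.80 in Huh7) and SESN2 (0.94 and 0.13), and lie on the same side of 0 for DDIT4 and EIF2AK3.

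The difference between the lines was tested itself, as an interaction, with all 12 libraries in 1 model and the 15668 genes, of those listed in both lines, that passed the filter on low counts over all libraries. CHAC1 is left out here, since it had too few HepG2 reads to be tested in that line and enters the joint model through Huh7 alone. The difference passed for 2 of the other 9 genes, TRIB3 and SESN2, where 21.5% of all genes passed. The change of TRIB3 was higher in Huh7 than in HepG2 by 0.78 ± 0.18 (SE) on the log2 scale (edgeR adjusted p = 0.00685), and that of SESN2 was lower in Huh7 by 0.84 on the log2 scale, with an SE of 0.16 (edgeR adjusted p = 0.00257). Both passed in all 18 alternatives. The other 7 did not pass, among them DDIT3, with a difference of 0.52 ± 0.22 (edgeR adjusted p = 0.121), ATF3, with -0.88 ± 0.47 (0.212), ATF4, with 0.15 ± 0.12 (0.415), and DDIT4, with 0.40 ± 0.27 (0.321). With the replicate block, whose numbers pair the libraries in HepG2 but not all of those in Huh7, ATF3, DDIT3 and DDIT4 also passed, at -0.93, 0.53 and 0.42 (edgeR adjusted p = 0.00171, 0.0437 and 0.0494). Without the block, ATF3 also passed without HepG2 Ctrl-siRNA replicate 3 (edgeR adjusted p = 0.00845). DDIT3 did so without HepG2 UBL5 siRNA replicate 3 (0.0273), and DDIT4 without Huh7 Ctrl-siRNA replicate 3 (0.0449). Whether the changes of these 3 genes differ between the lines thus turns on the block and on single libraries. Without both HepG2 replicate 3 libraries, the difference passed for 5 genes, with ATF4, DDIT3 and ATF3 added at 0.30, 0.61 and -0.97 (edgeR adjusted p = 0.0314, 0.0202 and 0.000938). Calls rose over all genes too, from 3374 with all 12 libraries and no block to 4338 with the block. They numbered 4497 without both HepG2 replicate 3 libraries. For EIF2AK3 the difference was -0.10 ± 0.11 (edgeR adjusted p = 0.554).

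**Figure D3:**
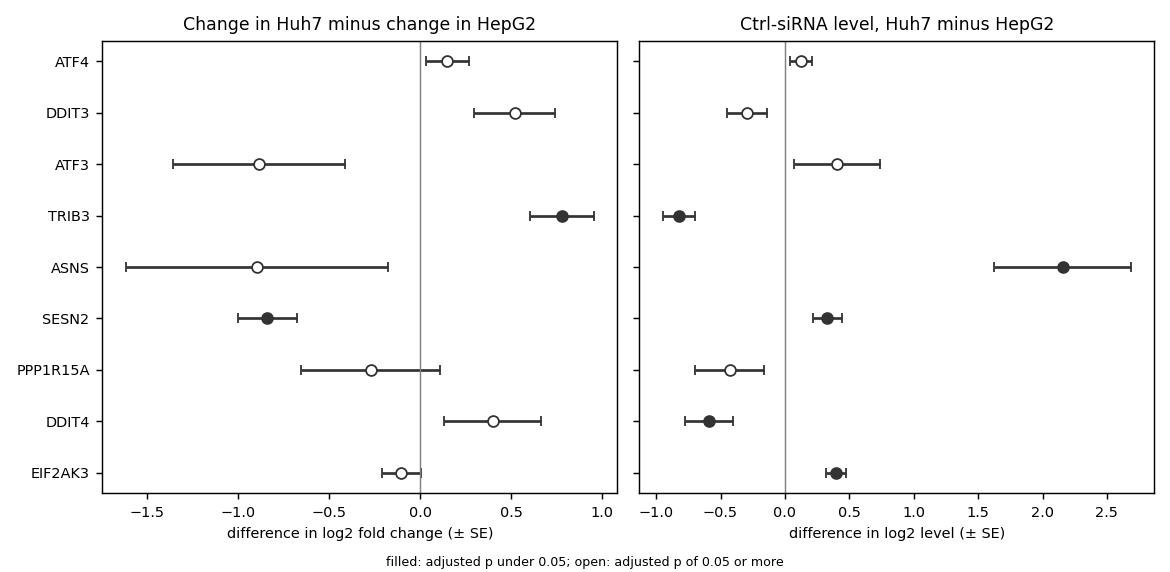
Left, the log2 fold change in Huh7 minus that in HepG2, and right, the Ctrl-siRNA level in Huh7 minus that in HepG2, for the 9 genes tested in each line (x axes in log2 units, points ± SE), filled where the edgeR adjusted p was under 0.05. On the left TRIB3 and SESN2 are filled, on opposite sides of 0, and on the right ASNS lies farthest from 0, at 2.15.

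The Ctrl-siRNA level differed between the lines for 5 of these 9 genes, beside 63.7% of all genes tested, so a difference in level was no more common among them than among genes at large. CHAC1, again left out of the count, was at 26.3 to 41.1 CPM in the Huh7 controls and 0 to 0.502 CPM in those of HepG2, where the 3 libraries held 7, 12 and 0 reads. ASNS was higher in Huh7 by 2.15 ± 0.53 (SE, edgeR adjusted p = 0.00277), EIF2AK3 by 0.40 ± 0.08 (0.000389) and SESN2 by 0.33 ± 0.11 (0.0216). TRIB3 and DDIT4 were lower in Huh7, with log2 differences of -0.82 ± 0.13 (edgeR adjusted p = 5.39e-05) and -0.59 ± 0.19 (0.0143). The SESN2 call was lost without HepG2 Ctrl-siRNA replicate 3 (edgeR adjusted p = 0.0743) and without Huh7 Ctrl-siRNA replicate 2 or 3 (0.0545 and 0.146). It was also lost without both HepG2 replicate 3 libraries. The DDIT4 call was lost without HepG2 Ctrl-siRNA replicate 2 (edgeR adjusted p = 0.0574) and without Huh7 Ctrl-siRNA replicate 1 or 2 (0.0546 and 0.0642). ATF4, DDIT3, ATF3 and PPP1R15A did not pass (edgeR adjusted p = 0.206, 0.115, 0.312 and 0.180). ATF3 passed, higher in Huh7 by 0.95, without both HepG2 replicate 3 libraries (edgeR adjusted p = 7.35e-06). It also passed in 1 of the 12 fits that each left out a single library (0.00625).

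To compare genes with each other, mean CPM in the Ctrl-siRNA libraries was divided by the length of the canonical transcript in kilobases. On this scale ATF4 was the most abundant of the 10 in both lines, at 197 ± 16.0 (SD, n = 3) in HepG2 and 230 ± 15.1 in Huh7, followed by TRIB3 at 88.1 ± 3.02 and 53.2 ± 9.16 and PPP1R15A at 39.6 ± 16.6 and 31.6 ± 4.80. ATF4, TRIB3 and PPP1R15A kept apart from each other in both lines. In HepG2 the order went on with DDIT4 (30.9), DDIT3 (21.1), SESN2 (12.8), EIF2AK3 (10.7), ATF3 (7.18), ASNS (0.313) and CHAC1 (0.169), where the ranges of PPP1R15A and DDIT4, of SESN2 and EIF2AK3, of EIF2AK3 and ATF3, and of ASNS and CHAC1 overlapped. In Huh7 it went on with DDIT4 (22.0), CHAC1 (21.3), DDIT3 (18.4), SESN2 (17.2), EIF2AK3 (15.0), ATF3 (10.2) and ASNS (1.47), and every neighbouring pair from PPP1R15A to EIF2AK3 overlapped. CHAC1 thus moved from last place in HepG2 to the fifth in Huh7.

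The genes whose levels followed ATF4 and DDIT3 most closely were sought among 10004 genes tested in both lines at a mean of at least 5 CPM in each, by Pearson's r of log2 CPM over the 12 libraries after each line's mean was taken out. For ATF4 they were PCBP2 (r = 0.86), USP47 (0.86) and CDK5RAP3 (0.85), and for DDIT3 the pseudogene NAP1L1P1 (0.88), DEDD (0.88) and STK19 (0.87). No other member was among them. NAP1L1P1 is a copy of NAP1L1, so its reads may be shared with that gene. All genes of a library share its depth and handling, and the highest values among so many genes are a description of these libraries.

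The other genes of the pathway were taken by list, and their counts stand beside the 16.5% of all genes called higher and 20.1% called lower in HepG2, and 34.9% and 36.4% in Huh7. Of all genes in HepG2, 2607 were called higher and 3173 lower. These numbers were 2982 and 3449 with the replicate block, and 3427 and 3743 without both replicate 3 libraries. The lists were not tested as sets. Of 20 genes for the other eIF2 kinases and their regulators, the subunits of eIF2 and its exchange factor eIF2B, and the eIF2 phosphatase, 7 fell (35%) and 0 rose in HepG2, and 10 fell (50%) and 5 rose (25%) in Huh7. Their median log2 fold change was -0.16 in HepG2 and -0.08 in Huh7, beside 0.01 and -0.01 over all genes. IMPACT, an inhibitor of the eIF2 kinase GCN2, fell in both lines, by 1.11 and 1.18 on the log2 scale (edgeR adjusted p = 0.00895 and 9.59e-08). EIF2B4, a subunit of eIF2B, rose in Huh7 from 39.4 ± 2.80 to 88.8 ± 1.02 CPM (SD, n = 3, edgeR adjusted p = 1.56e-08) and was at 83.7 ± 7.50 and 97.8 ± 2.90 CPM in HepG2 (0.0917). PPP1CC, a catalytic subunit of protein phosphatase 1, rose in Huh7 by 0.57 (edgeR adjusted p = 1.63e-07) and in HepG2 was at 0.19 (0.111). With the replicate block PPP1CC was called in HepG2 (edgeR adjusted p = 0.0397), and 2 of the 20 were then called higher. Without both replicate 3 libraries 6 of the 20 fell and 0 rose in HepG2.

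Of 15 bZIP partners and co-regulators of ATF4 and CHOP, 6 of 14 tested rose (42.9%) and 2 fell (14.3%) in HepG2, and 4 of 15 rose and 4 fell (26.7% each) in Huh7, with medians of 0.39 and 0.18 on the log2 scale. CEBPA, a hepatocyte C/EBP factor, rose in both lines, by 0.80 (edgeR adjusted p = 0.0239) and 1.08 (2.24e-08). Of the 2601 bases of its canonical transcript, however, 659 lie opposite one noncoding model and 482 opposite another. NFE2L2 (NRF2), the regulator of the antioxidant response and a partner of ATF4, rose by 0.38 (edgeR adjusted p = 0.0244) and 0.59 (5e-07). The HepG2 call of CEBPA was lost without Ctrl-siRNA replicate 2 or UBL5 siRNA replicate 1 or 2 (edgeR adjusted p = 0.0515, 0.0857 and 0.0626), and that of NFE2L2 without Ctrl-siRNA replicate 1 or 2 or UBL5 siRNA replicate 2 or 3 (0.0661, 0.0873, 0.0521 and 0.0616). NFIL3, a transcriptional repressor, fell in Huh7 by 0.61 (edgeR adjusted p = 2.75e-06) and had a log2 fold change of -0.07 in HepG2 (0.787). In HepG2, 7 of the 14 tested rose with the replicate block and 8 without both replicate 3 libraries, and 2 fell in each.

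Of 13 genes of amino acid and one-carbon synthesis, which include metabolic genes that ATF4 is known to drive, 10 fell (76.9%) and 0 rose in HepG2 and 8 fell (61.5%) and 4 rose (30.8%) in Huh7. The medians were -0.67 and -0.30, beside 0.01 and -0.01 over all genes. The mitochondrial folate enzyme ALDH1L2 fell from 6.05 ± 1.97 to 1.50 ± 0.657 CPM in HepG2 (SD, n = 3, edgeR adjusted p = 0.00389) and from 12.8 ± 1.39 to 2.28 ± 0.271 CPM in Huh7 (2.92e-08). PYCR1, which makes proline, fell by 0.67 and 0.79 on the log2 scale (edgeR adjusted p = 0.0221 and 5.81e-07). Its HepG2 call was lost without Ctrl-siRNA replicate 1 or 2 or UBL5 siRNA replicate 2 (edgeR adjusted p = 0.0610, 0.0768 and 0.0709). PSPH, which makes serine, rose in Huh7 by 0.42 (6.7e-06) and stood at -0.01 in HepG2 (0.969). With the replicate block 1 of the 13 was called higher in HepG2. Without both replicate 3 libraries 9 fell and 0 rose there, with a median of -0.56.

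Of 11 amino acid transporters, 2 rose (18.2%) and 4 fell (36.4%) in HepG2 and 4 rose (36.4%) and 7 fell (63.6%) in Huh7, with medians of -0.45 and -0.18. SLC38A2 (SNAT2), a transporter of small neutral amino acids, rose in both lines, from 1567 ± 284 to 3343 ± 1072 CPM in HepG2 (SD, n = 3, edgeR adjusted p = 0.00479) and from 429 ± 4.89 to 747 ± 64.6 CPM in Huh7 (2.67e-07). SLC7A1, which carries cationic amino acids, fell by 0.45 and 0.72 on the log2 scale (edgeR adjusted p = 0.00278 and 2.65e-07). The glycine transporter SLC6A9 fell by 1.07 in Huh7 (edgeR adjusted p = 1.93e-06) and in HepG2 had a log2 fold change of -0.63 (0.167), which was called without both replicate 3 libraries (0.00587). Of the 11 transporters, 3 rose and 5 fell in HepG2 with the replicate block, and 3 rose and 6 fell without both replicate 3 libraries. Of 13 cytosolic tRNA synthetase and related genes, 7 fell (53.8%) and 0 rose in HepG2 and 6 fell (46.2%) and 4 rose (30.8%) in Huh7, with medians of -0.25 and -0.08. Without both replicate 3 libraries 6 of these 13 fell and 0 rose in HepG2. EPRS1 fell in both lines, by 0.68 and 0.39 (edgeR adjusted p = 0.000313 and 4.78e-06), and YARS1 and the tRNA exporter gene XPOT rose in Huh7, by 0.39 and 0.37 (5.81e-06 and 8.55e-06), with log2 fold changes of 0.17 (0.125) and -0.05 (0.715) in HepG2.

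Of 18 other targets of ATF4 and CHOP, 8 of 16 tested rose (50%) and 4 fell (25%) in HepG2, and 7 of 17 rose (41.2%) and 8 fell (47.1%) in Huh7, with medians of 0.49 and 0.18. HMOX1, which breaks down heme and is also a target of NRF2, rose from 34.6 ± 7.11 to 87.0 ± 11.7 CPM in HepG2 (SD, n = 3, edgeR adjusted p = 0.000502) and from 31.6 ± 1.99 to 88.8 ± 2.15 CPM in Huh7 (3.04e-09). TNFRSF10B, the death receptor DR5, a target of CHOP and also of p53, rose by 0.85 and 0.72 on the log2 scale (edgeR adjusted p = 0.000166 and 4.71e-08). NIBAN1, a stress-induced gene, was listed in Huh7 only and fell there by 2.37 (edgeR adjusted p = 1.48e-09).

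Of 20 genes of the other branches of the unfolded protein response, those of ATF6 and XBP1, 4 rose (20%) and 2 fell (10%) in HepG2 and 6 rose and 6 fell (30% each) in Huh7, with medians of 0.08 and -0.05. These shares were near or below those over all genes. In HepG2, 5 rose and 3 fell with the replicate block, and 6 rose and 2 fell without both replicate 3 libraries. EDEM1, which hands misfolded glycoproteins to degradation, fell in both lines, by 0.97 and 1.26 on the log2 scale (edgeR adjusted p = 0.000315 and 2.05e-09). The chaperone CALR fell in Huh7 by 0.52 (edgeR adjusted p = 5.93e-06), with -0.15 in HepG2 (0.224), and the co-chaperone gene DNAJB11 rose in both, by 0.78 and 0.43 (0.00461 and 8.94e-06). DNAJB11 also shares part of its exons with a neighbouring gene model. Among the genes named from the lists, parts of EIF2B4, NFE2L2, ALDH1L2, PYCR1, SLC6A9, TNFRSF10B, EDEM1 and CALR also lie opposite exons of other gene models. The part of these overlaps in the counts was not tested.

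**Figure D4:**
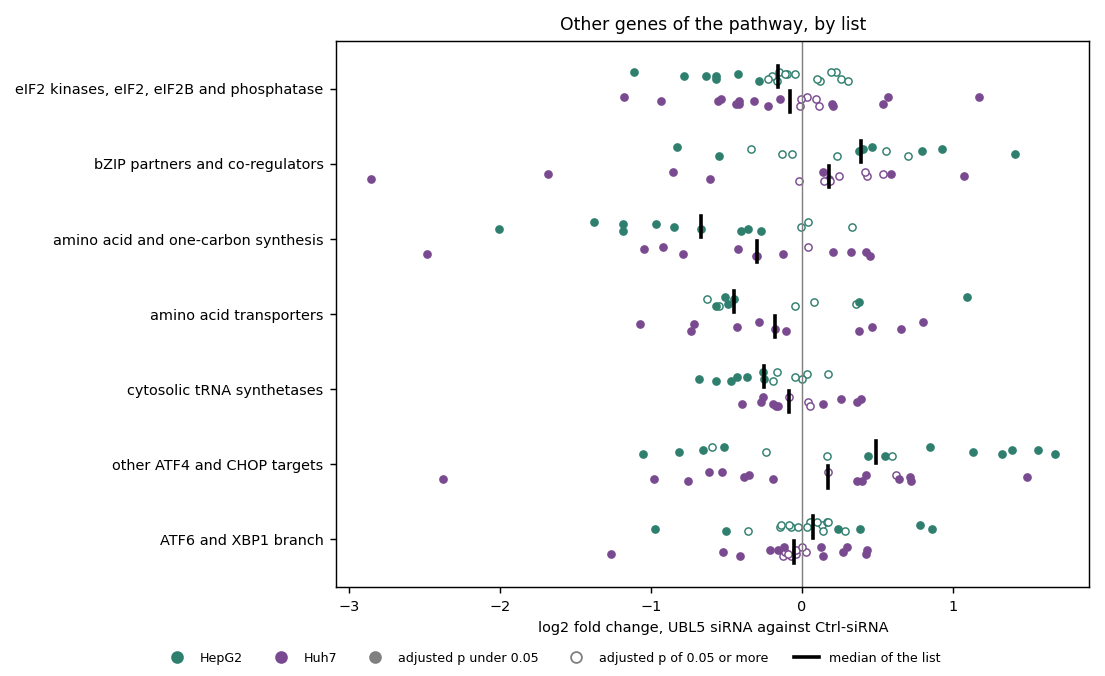
Log2 fold change with UBL5 siRNA (x axis) of every tested gene in 7 lists of the pathway, HepG2 in green and Huh7 in purple, filled where the edgeR adjusted p was under 0.05, with the median of each list as a black bar. The median of amino acid and one-carbon synthesis lies at -0.67 in HepG2 and -0.30 in Huh7, and that of the other ATF4 and CHOP targets at 0.49 and 0.18.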

How the data were processed

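Per the labels and the study's methods, the authors made poly-A stranded libraries, aligned single reads with STAR 2.7.6a to GRCh38 and deposited raw counts per gene from featureCounts, whose version, annotation and strand setting are not given in the sources used here. The tables also hold the authors' DESeq2 comparisons (mean, fold change, standard error, statistic, p-value and adjusted p), which were not used. Counts were tested within each line by edgeR 4.0.16 (R 4.3.3; TMM scaling, filterByExpr with a minimum count of 10, quasi-likelihood F test, Benjamini-Hochberg over all genes tested, adjusted p under 0.05, no minimum fold), and between lines as an interaction or as the difference in Ctrl-siRNA level in 1 fit over 12 libraries. CPM uses the TMM-scaled library size. The biological coefficient of variation was 0.189 in HepG2, 0.0663 in Huh7 and 0.124 over both. Replicate numbers come from the labels. Same-numbered HepG2 libraries deviated together (r = 0.408, 0.319 and 0.336 over genes of at least 10 CPM), and those of Huh7 did not all do so (0.437, 0.0625 and 0.567). The blocked value is therefore given where it changes a call of a member. For the lists it is given where it changes a HepG2 count or the HepG2 call of a gene named from them. No libraries were duplicates. Scripts were tested on simulated data.

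The members, the 7 lists and the tests were chosen with earlier results of these data known. Named are the 10 members, the 3 genes of smallest adjusted p in either line from each list, the 3 nearest genes of ATF4 and DDIT3, UBL5, and genes whose exons overlap a member's. Gene models are from GENCODE 44 and promoter windows from RefSeq. Alternatives were RLE size factors, upper-quartile scaling, no filter, DESeq2 1.42.0, the replicate block, leaving out each library, 1 fit over both lines and, chosen after seeing the data, leaving out both HepG2 replicate 3 libraries.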

Additional observations from a re-analysis of the deposited data

Results flagged for a closer look

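TRIB3 and SESN2 differed between the lines in their change with UBL5 siRNA, by the interaction test over 12 libraries. For TRIB3 the log2 fold change in Huh7 minus that in HepG2 was 0.78, and all 3 UBL5 siRNA libraries of Huh7 were above its controls while the HepG2 groups overlapped. For SESN2 the difference was -0.84, with the separation in HepG2 and the overlap in Huh7. TRIB3 was lower in Huh7 than in HepG2 with Ctrl-siRNA and SESN2 higher, and the part of these control levels in the differences was not tested.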

How the results depend on the processing

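SESN2 in HepG2 and TRIB3, DDIT4 and EIF2AK3 in Huh7 kept their calls in every alternative, as did the differences between the lines in the change of TRIB3 and SESN2 and in the Ctrl-siRNA level of ASNS, TRIB3 and EIF2AK3. The number of members called higher in HepG2 was 1 in the fit over both lines and 1 to 2 when each library was left out. The number called lower in HepG2 was 1 with RLE size factors, with upper-quartile scaling, without the filter and in DESeq2, and 0 to 1 when each library was left out. In Huh7, the number called higher was 2 to 5 and the number lower 1 to 3 when each library was left out, and the number lower was 1 in DESeq2 and 1 in the fit over both lines. With the replicate block, whose numbers pair the HepG2 libraries but not all of Huh7 (Ctrl-siRNA replicate 2 correlated best with UBL5 siRNA replicate 1), 5 members were called higher in Huh7, with ASNS and SESN2 added, 3 were called lower, with ATF3 added, and 5 differed in change between the lines, with DDIT3, ATF3 and DDIT4 added. For the Ctrl-siRNA level, the block was the replicate number shared by both lines. The labels do not state such a pairing across lines, and it was not checked. That fit added DDIT3 and PPP1R15A to the members that differed in Ctrl-siRNA level (edgeR adjusted p = 0.0469 and 0.0490). The replicate block changed no other call of a member beside ATF3 in HepG2. Without both HepG2 replicate 3 libraries 5 differed in change. Over all genes the calls rose too. The difference in change passed for 3374 genes with all libraries and no block, 4338 with the block and 4497 without both HepG2 replicate 3 libraries. In Huh7, 6262 genes were called higher and 6410 lower with the block, against 5922 and 6176 without it. All genes called lower in HepG2 numbered 1985 to 3892 when each library was left out.

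Values near 0 that did not pass the test changed sign. In HepG2, ATF4 was at 0.0099 with RLE size factors, 0.014 with upper-quartile scaling, 0.0040 without the filter, 0.017 in DESeq2 and -0.087 to 0.047 when each library was left out. TRIB3 was at 0.021, 0.025, 0.016 and 0.029 in the same order, 0.0028 without both replicate 3 libraries and -0.059 to 0.097 in the leave-outs. PSPH was at 0.018, 0.023, 0.016 and 0.027, at 0.0038 with the replicate block, at 0.18 without both replicate 3 libraries and at -0.085 to 0.13 in the leave-outs. Leave-outs gave PPP1R15A -0.42 to 0.25. NFIL3 was at 0.073 and XPOT at 0.032 without both replicate 3 libraries, and at -0.16 to 0.14 and -0.11 to 0.028 in the leave-outs. In Huh7 the leave-outs gave DDIT3 -0.073 to 0.14 and CHAC1 -0.29 to 0.042. The difference between the lines for CHAC1, which rests on 0 to 12 reads per HepG2 library, was 0.059 with the replicate block, 0.15 without both HepG2 replicate 3 libraries and -1.02 to 0.54 in the leave-outs, and that for PPP1R15A -0.68 to 0.035. The cause of these changes was not tested. A change of CHAC1 in HepG2 was not detectable at this depth.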
